A study of Drosophila melanogaster with 3 samples.

Results

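General transcription factor genes encode the proteins that load RNA polymerase II onto promoters. The binding of the Drosophila protein CG12942 was described at 32 of them, out of 13945 protein-coding genes on 6 chromosome arms. The rule for the 32 genes uses symbols and no measured value, though it was set with earlier results of these data known. It takes symbols that start with Taf and a digit, with TfII, or with Tfb and a digit, together with Tbp, Trf, Trf2, Ssl1, hay and e(y)1, which the annotation lists as Taf9. They were put in 3 classes, with 15 genes of TFIID, 5 of TFIIH and 12 others. The data are ChIP-seq peak lists from whole embryos of 0 to 24 hours, of both sexes, that carry CG12942-eGFP, a transgene with green fluorescent protein at the C terminus of CG12942. Chromatin was precipitated with an anti-GFP antibody, and 3 biological replicates form the only group. The sequence that drives the transgene is not given in the sources used here, embryos of all ages in this range were pooled, the flies are 1 transgenic line, and no input or untagged library was analysed here. The replicate lists hold 30000, 30000 and 27870 peaks, and the authors' optimal list holds 3844. Without read totals, library depth is unknown.

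TFIID recognises the core promoter through the TATA-binding protein Tbp and its associated factors, the TAFs, many of which pair through histone folds. TFIIA and TFIIB then stabilise the complex and bring in the polymerase, with TFIIF, and TFIIE and TFIIH follow. TFIIH opens the DNA, with the translocase encoded by hay, and phosphorylates the polymerase tail. Nearly every gene read by RNA polymerase II uses these proteins, and flies also have TBP-related factors, encoded by Trf and Trf2, that replace Tbp at some promoters. A gene is called bound below when the summit of an optimal peak lay within 500 bp of a transcription start site (TSS) of a protein-coding transcript, which describes where a peak was found and not what it does to the gene.

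A run of letters found at some summits of the members is CGATA, the core recognised by the insulator protein BEAF-32 and part of the DRE element. CGATA, searched on both strands, lay within 50 bp of the summit at 5 of the 10 bound members. The share was 17.2% over all 3844 optimal summits, which are not limited to promoters. In promoters, CGATA was found at 70% of bound and 68.2% of unbound members. The match nearest to each of the 5 summits is printed with 10 bases on each side. It is written 5′ to 3′ on the strand that reads CGATA, with the match in capitals. All sequences are from the dm6 assembly. The Ssl1 match lies at chr3L:22878892-22878896, the Taf7 match at chr3R:7907608-7907612, the Tfb4 match at chr2L:1150764-1150768, the Tfb5 match at chr2L:5010976-5010980 and the TfIIA-S match at chr3R:23891070-23891074, each on the plus strand.
Ssl1: tattgcctgtCGATAgctttaaact
Taf7: gtgctcgcagCGATAactgtgacgt
Tfb4: cagccgccttCGATAgagctgttat
Tfb5: aaccagcaccCGATAttaactatat
TfIIA-S: ggttagcacgCGATAgcgtgacact
In these 5 sites, the centre of the match lay 14, 12, 8, 2 and 44 bp from the summit in the order shown. The Tfb4 window held 3 further matches, 20, 26 and 39 bp from the summit.

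The summits of Taf4, TfIIB and TfIIA-L lay outside untranslated sequence and had no CGATA within 50 bp. Their windows of 50 bp on each side of the summit are shown on the coding strand, since they show what a bound member without that core looks like: chr3L:16113652-16113752 for Taf4, chr2L:10430939-10431039 for TfIIB and chr3R:27253204-27253304 for TfIIA-L, all on the plus strand. The last line is the gap between the TSSs of Taf10b and Taf10 (chr2L:2767846-2767889, plus strand), a divergent pair with no peak in any list, and its capitals mark CGATA read on the minus strand.
Taf4: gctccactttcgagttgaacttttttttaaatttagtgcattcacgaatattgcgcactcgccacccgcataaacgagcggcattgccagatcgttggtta
TfIIB: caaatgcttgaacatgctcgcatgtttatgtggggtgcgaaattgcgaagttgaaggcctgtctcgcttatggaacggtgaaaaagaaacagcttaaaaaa
TfIIA-L: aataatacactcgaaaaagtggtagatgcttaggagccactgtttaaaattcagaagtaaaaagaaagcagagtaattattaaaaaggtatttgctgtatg
Taf10b-Taf10: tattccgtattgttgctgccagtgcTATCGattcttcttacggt

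Of the 32 general transcription factor genes, 10 were bound (31.2%), against 2674 of all 13945 protein-coding genes (19.2%). The bound members were Taf2, Taf4, Taf5 and Taf7 of TFIID, Ssl1, Tfb4 and Tfb5 of TFIIH, and TfIIA-L, TfIIA-S and TfIIB among the others. By class this was 4 of 15 TFIID genes (26.7%), 3 of 5 TFIIH genes (60%) and 3 of 12 others (25%). Taking the 3844 strongest peaks of each replicate in place of the optimal list gave 10, 9 and 11 bound members in replicates 1, 2 and 3, a mean of 31.2% ± 3.12 (SD, n = 3). The shares over all genes in the same lists were 18.6%, 19.2% and 18.8%, so the members lay above them in each replicate. The direction turned when each summit was counted only for the gene with the nearest TSS, with 3 of 32 members bound (9.38%, and 0 of 5 TFIIH genes) against 13.5% of all genes. Neither comparison is matched for gene arrangement, which is described below.

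TFIID overlapped with both other classes in the replicates, while TFIIH stayed above the other members in each. TFIID had 28.9% ± 10.2 of its genes bound (SD, n = 3), with 4, 3 and 6 genes in replicates 1, 2 and 3. TFIIH had 53.3% ± 11.5 (SD, n = 3), with 3, 3 and 2 genes. The other members gave 25% in each replicate, always through TfIIA-L, TfIIA-S and TfIIB. TFIID and TFIIH had the same share, 40%, in replicate 3, and a single gene moves the TFIIH share by more than the SD between replicates. The difference between classes was not tested, because genes of a class are not replicates of a condition.

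**Figure D1:**
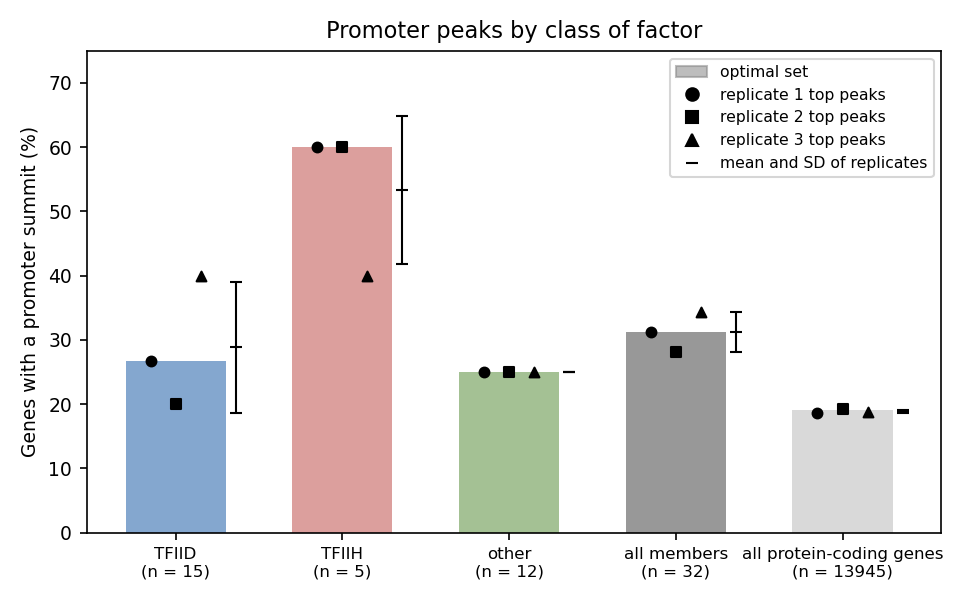
Bars give the share of genes with a summit of the optimal set within 500 bp of a TSS, for each class of factor, all members and all protein-coding genes. Points give the same share in the 3844 strongest peaks of each replicate and the line beside each bar their mean and SD (n = 3); all members lie between 28.1% and 34.4%, and all genes between 18.6% and 19.2%.

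Among TFIID genes the strongest peak was at Taf5, which encodes a WD40 repeat subunit of the complex core (FBgn0010356, chr2R:10877312-10879673). The authors' signal, a score written by the peak caller that is comparable only within a list, was 263 in the optimal list (rank 480). In replicates 1, 2 and 3 it was 91.0, 72.1 and 99.7, at ranks 539, 596 and 430. The Taf5 peak was therefore high in every replicate, and its summit lay between genes, 171 bp upstream of the TSS of Taf5 and 130 bp upstream of that of Pex6, a divergent gene for a peroxisomal ATPase.

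Taf4 encodes a histone-fold subunit that pairs with Taf12 (FBgn0010280, chr3L:16113212-16121651). Its peak (chr3L:16113500-16113903) had a signal of 193 in the optimal list (rank 917), and ranked 826, 850 and 1487 in replicates 1, 2 and 3, with signals of 73.8, 60.5 and 51.6. The gene has 3 TSSs and no head-to-head neighbour. The summit was intronic, 88 bp upstream of the second TSS and 490 bp downstream of the first.

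Taf2, whose product contacts the initiator region of promoters, had 2 optimal summits within 500 bp (FBgn0011836, chr3L:9884411-9888683). The stronger peak (chr3L:9888580-9888983) had a signal of 161 (rank 1285). The strongest peaks within 500 bp in replicates 1, 2 and 3 ranked 1541, 1004 and 1526, with signals of 54.0, 54.9 and 50.8. In replicate 3 the summit lay 148 bp from the stronger optimal summit, and which of the 2 optimal summits it belongs to was not tested. The stronger optimal summit lay 99 bp upstream of the TSS of Taf2 and 20 bp downstream of that of CalpB, a calpain gene. It was inside the untranslated region of CalpB.

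Taf7, which encodes a partner of Taf1, had the weakest TFIID peak of the optimal list (FBgn0024909, chr3R:7907333-7909721). The peak (chr3R:7907420-7907823) had a signal of 100.1 (rank 2690), and 33.2, 22.8 and 43.3 in replicates 1, 2 and 3. The ranks there were 3643, 4066 and 1930, so in replicate 2 it fell just outside the strongest 3844. The summit lay 16 bp upstream of the second TSS of Taf7 and 289 bp downstream of the first, in the untranslated region of Taf7.

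Ssl1 had by far the strongest peak of any member (FBgn0037202, chr3L:22879089-22880963). It encodes a core subunit of TFIIH, known as p44 in human. The peak (chr3L:22878705-22879116) had a signal of 1182 and rank 6 of the 3844 optimal peaks. It ranked 12, 7 and 5 in replicates 1, 2 and 3, with signals of 367, 369 and 449, and the replicate summits lay within 7 bp of the optimal one. The summit was nearer to the neighbour than to Ssl1: it lay 209 bp upstream of the TSS of Ssl1 and 104 bp downstream of that of Chro, in the untranslated region of Chro, which encodes the chromatin protein Chromator.

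The other bound TFIIH genes had much weaker peaks. Tfb5, for the smallest TFIIH core subunit (FBgn0265968, chr2L:5009931-5010834), had a signal of 140.4 in the optimal list (rank 1589) and signals of 44.9, 43.6 and 40.5 in the replicates. Its ranks there were 2119, 1512 and 2123, and its summit lay 146 bp upstream of its TSS and 58 bp downstream of that of SelT, in SelT's untranslated region. The annotation starts CG31917 at the same TSS as Tfb5.

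Tfb4, for a zinc-binding core subunit (FBgn0031309, chr2L:1149445-1150677), had a signal of 86.3 (rank 3386). It ranked 2454 and 2953 in replicates 1 and 2, with signals of 41.5 and 28.5, and had no peak within 500 bp in the relaxed list of replicate 3. It was the only bound member missing from a replicate list. Its summit lay 81 bp upstream of its TSS and 8 bp upstream of that of Vps29, a retromer subunit gene.

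Of the other members, both genes of the classical TFIIA had peaks of similar rank. TfIIA-L encodes the precursor of the large subunits (FBgn0011289, chr3R:27251112-27256463), and its peak (chr3R:27253176-27253303) had a signal of 220.0 (rank 705). The replicates gave signals of 68.7, 79.4 and 67.3 at ranks 954, 485 and 927. The summit was in an intron, 2142 bp downstream of the first TSS and 176 bp upstream of the second, and 72 bp upstream of the TSS of pll, which encodes the Toll pathway kinase Pelle.

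TfIIA-S encodes the small subunit (FBgn0013347, chr3R:23890388-23891060), and its peak (chr3R:23891028-23891193) had a signal of 199 (rank 865). Its ranks in replicates 1, 2 and 3 were close together, at 897, 857 and 919, with signals of 70.5, 60.04 and 67.6. No other protein-coding TSS lay within 500 bp of the summit, which was 56 bp upstream of its own.

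TfIIB, for the factor that links TFIID to the polymerase (FBgn0004915, chr2L:10431338-10433116), had a signal of 172 (rank 1123). In replicates 1, 2 and 3 it had signals of 58.4, 44.4 and 66.5 at ranks 1353, 1467 and 950. Its peak (chr2L:10430787-10431190) lay between genes, with the summit 349 bp upstream of TfIIB, the farthest of all members, and 71 bp upstream of Bug22, the divergent neighbour.

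Across the 10 bound members the optimal signal had a median of 183, against 143 over all 2674 bound genes, and the lowest and highest were 86.3 at Tfb4 and 1182 at Ssl1. In 8 of the 10, all but Taf7 and Tfb4, a peak within 500 bp was in the strongest 3844 of each of the 3 replicates. This is 25% of the 32 members, against 13.4% of all genes. The share among all bound genes was not counted. The replicate summits were close to the optimal ones, with 28 of 29 within 60 bp and the remaining one, at Taf2 in replicate 3, at 148 bp. All 10 summits lay upstream of the nearest TSS of the member, with a median of 122.5 bp, as did 90.7% of summits over all bound genes, whose median was 132.5 bp upstream.

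**Figure D2:**
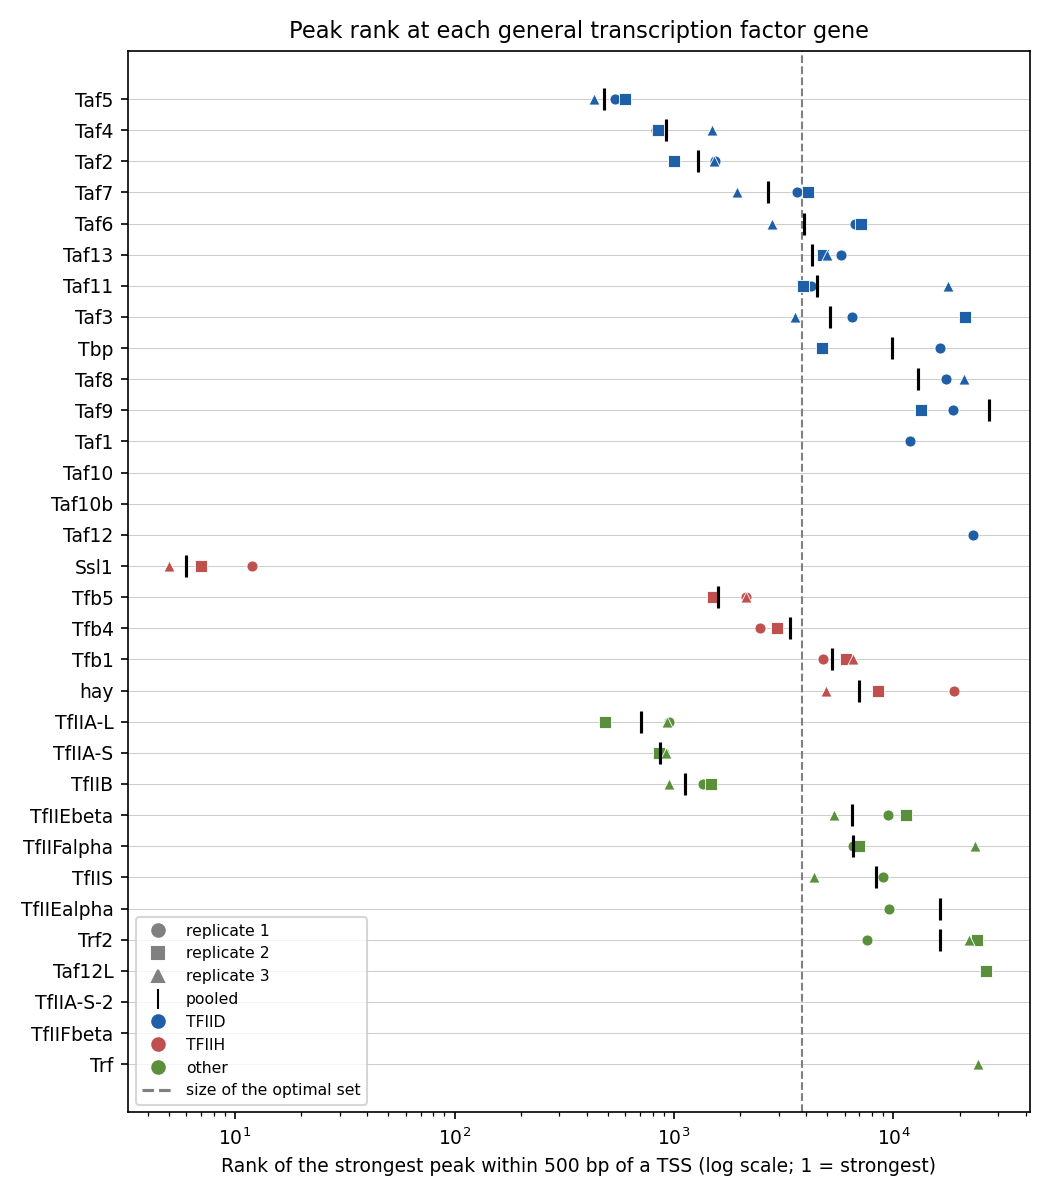
Each point is the rank of the strongest peak with a summit within 500 bp of a TSS of the gene in 1 replicate, and the black mark the rank in the pooled list, on a log scale; a missing mark means no such peak, and the dashed line is the size of the optimal set, 3844. Ssl1 stands at ranks 5 to 12, the other bound members between 430 and 4066, and Taf6, Taf13, Taf11, Taf3 and Tfb1 just beyond the line in the pooled list.

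Most bound members shared their summit with a neighbour whose TSS was nearer. This held for 7 of the 10: Taf2 (CalpB), Taf5 (Pex6), Ssl1 (Chro), Tfb4 (Vps29), Tfb5 (SelT), TfIIA-L (pll) and TfIIB (Bug22). When each summit was counted only for the gene with the nearest TSS, 3 members stayed bound, Taf4, Taf7 and TfIIA-S, which is 9.38% of the 32 against 13.5% of all genes. Of the bound members 30% stayed bound under this count, against 70.2% of all bound genes. No TFIIH gene was bound under it. ChIP-seq peaks do not tell which of the neighbouring genes, if any, responds to the protein, and that was not measured here.

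**Figure D3:**
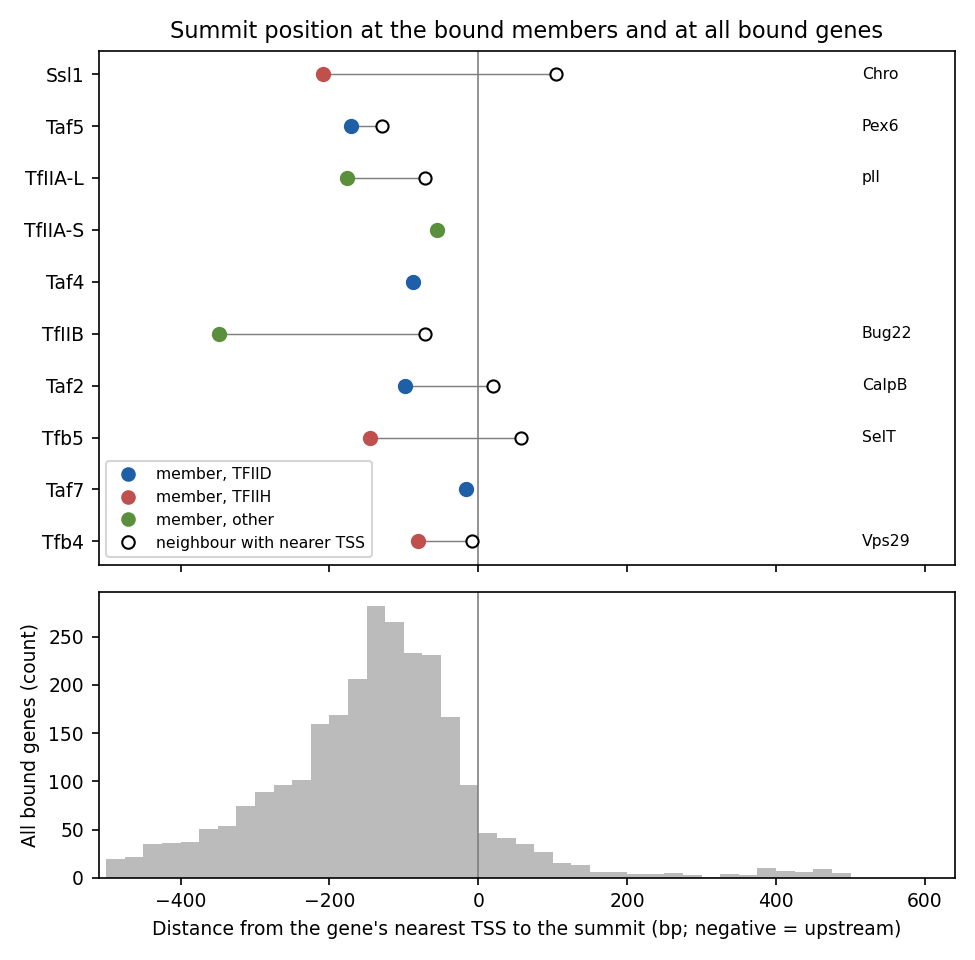
Top, the distance from the nearest TSS of each bound member to its summit (filled) and from the nearer TSS of a neighbour to the same summit (open, neighbour named at right), each along its own gene in bp, with negative values upstream. Bottom, the same distance for all 2674 bound genes; the members lie between 349 and 16 bp upstream.

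The members were often head-to-head genes, which here means that a TSS of a second protein-coding gene, read in the opposite direction, lay no more than 500 bp away. The count was 18 of 32 (56.2%), against 27.8% of all genes. Within this arrangement 8 of 18 members were bound (44.4%), against 40.2% of all 3878 such genes. Outside it 2 of 14 members were bound (14.3%), Taf4 and TfIIA-S, against 11.1% of the 10067 other genes. Set beside genes of the same arrangement, the members' shares were therefore close to the background. By class, the head-to-head genes were 9 of 15 in TFIID with 3 bound, 4 of 5 in TFIIH with 3 bound, and 5 of 12 among the others with 2 bound. A head-to-head gene also has more TSSs around a summit, and the part of this in the counts was not tested.

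**Figure D4:**
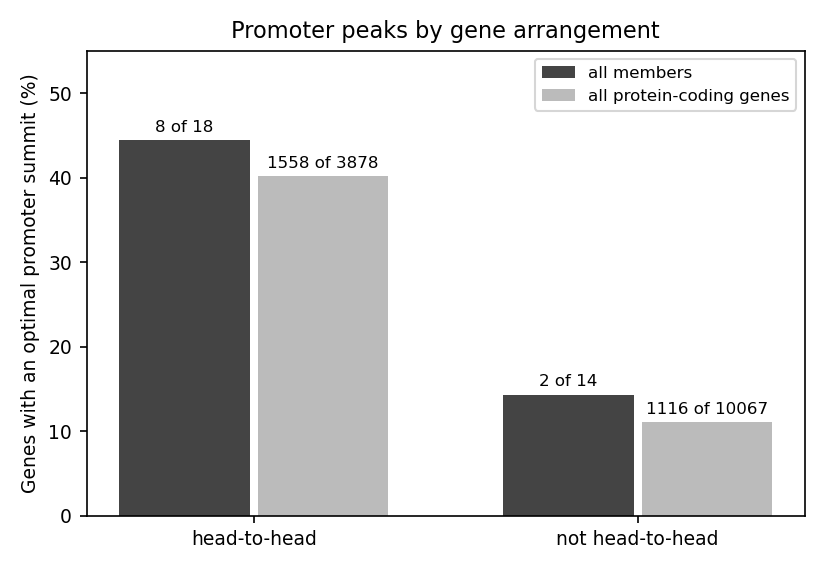
Share of genes called bound among members and among all protein-coding genes, for genes with and without a head-to-head neighbour, with the counts above the bars. Members stand at 44.4% and 14.3%, and all genes at 40.2% and 11.1%.

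The 22 members that were not bound included Tbp itself. Tbp (FBgn0003687, chr2R:21686192-21687642) had a relaxed peak in replicates 1 and 2, at ranks 16378 and 4749, with signals of 12.7 and 20.7, and none in replicate 3. Both TBP-related genes were also without an optimal peak. Trf2, whose product serves ribosomal protein and other TATA-less promoters, ranked 7565, 24145 and 21992 in the replicates. Trf had a single relaxed peak, at rank 24229 in replicate 3, 440 bp downstream of its TSS, although it is head-to-head with MED20, a Mediator subunit gene.

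Several unbound members had weaker peaks near a TSS in every replicate list. The summits of these peaks were not matched between replicates, and the relaxed lists also hold background. Of the 22, 9 had a relaxed peak within 500 bp in all 3 replicates (40.9%), against 18.2% of unbound genes in general. Over bound and unbound genes together this was 18 of 32 members (56.2%), against 33.6% of all genes. These shares were not matched for head-to-head arrangement, which was more frequent among the members. The optimal list is the same as the 3844 strongest peaks of the pooled list, so the pooled rank gives each gene's distance from the threshold. Taf6, which encodes a histone-fold partner of Taf9, came closest at pooled rank 3896 with a signal of 77.8, against 78.9 for the weakest optimal peak. Its ranks were 6682, 7110 and 2790 in replicates 1, 2 and 3, so replicate 3 alone placed it within the strongest 3844. The strongest optimal peak of all, rank 1, lay 8463 bp upstream of Taf6.

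The next were Taf13 and Taf11, whose products form a histone-fold pair. Taf13 stood at pooled rank 4257 and at 5757, 4779 and 4981 in the replicates. Taf11 stood at pooled rank 4496 and at 4213, 3883 and 17778, so it was close to the threshold in replicates 1 and 2 and far from it in replicate 3. Taf3, on chromosome 4, had pooled rank 5155 and ranks of 6487, 21111 and 3564, again spread between replicates.

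Among the TFIIH genes Tfb1, for a core subunit known as p62 in human, had pooled rank 5259 and even ranks of 4785, 6099 and 6551. The hay gene, for the XPB translocase, had pooled rank 6981 and ranks of 18946, 8538 and 4918. TfIIEbeta and TfIIFalpha, for subunits of TFIIE and TFIIF, had pooled ranks of 6443 and 6574. TfIIEbeta ranked 9439, 11443 and 5348 in the replicates and TfIIFalpha 6521, 6961 and 23489.

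No peak of any relaxed list lay within 500 bp of a TSS of Taf10, Taf10b, TfIIFbeta or TfIIA-S-2, which is 12.5% of the members, against 31.7% of all genes. Taf10 and Taf10b encode paralogous TFIID subunits and are head-to-head with each other, with 44 bp between their TSSs, the gap printed above. The nearest optimal summit was 1794 bp from the TSS of Taf10 and 1749 bp from that of Taf10b. TfIIA-S-2, a paralogue of TfIIA-S on the X chromosome, had its nearest optimal summit 55557 bp away, while TfIIA-S itself was bound in every replicate.

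The remaining unbound members had only scattered weak peaks. Taf1, for the largest TFIID subunit, had a peak in replicate 1 alone (rank 11902), as did Taf12 (rank 23031), and Taf12L, a testis paralogue of Taf12, had a peak in replicate 2 alone (rank 26392). Taf8 and Taf9 had a peak in 2 replicates, with best ranks of 17299 and 13323. TfIIEalpha had a replicate peak in replicate 1 alone (rank 9545). TfIIS, which encodes an elongation factor that restarts arrested polymerase, ranked 8916 and 4363 in replicates 1 and 3, and the nearest optimal summit was 813 bp upstream of it. None of the 4 members on X (Taf8, Taf9, Trf2 and TfIIA-S-2) was bound, against 16.4% of all X genes.

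Beside the 10 of 32 members, genes of related machinery, in part outside RNA polymerase II initiation, were also counted, and the difference was not tested. Of 32 genes listed as TFIIH partners, testis TAF paralogues, TBP regulators and partners in RNA polymerase I and III transcription, and SAGA or ATAC subunits, 16 were bound (50%, against 19.2% of all genes). Of these 32 genes 21 were head-to-head, and 14 of the 16 bound genes were among them, the exceptions being CycH and Ada2b. The strongest were Bdp1 (signal 535, rank 89), NC2alpha (408, rank 181) and Brf (401, rank 186). Bdp1 and Brf encode RNA polymerase III initiation factors and NC2alpha a subunit of a repressor that binds TBP. Brf, which works with Trf at polymerase III genes in flies, had a strong optimal peak, and Trf had no optimal peak.

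Of the 4 TFIIH kinase module and helicase genes outside the symbol rule, Cdk7 (signal 95.0), CycH (87.8) and Xpd (115.1) were bound and Mat1 was not, against 19.2% of all genes and 40.2% of head-to-head genes. Cdk7 and Xpd were head-to-head. The gene mrn, which encodes the subunit also named Tfb2, had a signal of 127, but it was added after its value was seen and enters no count. Apart from Ssl1, the bound members of TFIIH and the 3 bound partners had signals between 86.3 at Tfb4 and 140.4 at Tfb5. Of these genes only Tfb5 was above the median of the optimal list, 125.

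None of 5 testis TAF paralogues was bound (can, mia, nht, sa and the member Taf12L). Of 15 SAGA or ATAC subunit genes 6 were bound: Gcn5 (signal 249), wda (232), Sgf11 (175), Ada3 (159.9), Ada2b (155) and e(y)2 (136). Of 9 genes listed as TBP regulators and polymerase I and III partners 7 were bound, and 8 of the 9 were head-to-head. The list also takes in Dref, for the factor that binds the DRE element. The bound genes besides the 3 above were TAF1C-like (169.8), Dref (165), Hel89B (148) and TAF1B (94.9). NC2beta and Tif-IA were not bound. The shares to set beside these counts are 19.2% of all genes and 40.2% of head-to-head genes, and 11 of the 15 SAGA or ATAC genes and 0 of the 5 testis paralogues were head-to-head.

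Among the 9 motifs searched, CGATA was the most frequent in the promoters of the members. It was found in 22 of 32 promoters (68.8%), from 250 bp upstream to 50 bp downstream of the most 5′ TSS, against 47.5% of all promoters. Among head-to-head genes the share was 72.2% of members and 61.9% of all genes, and among the rest 64.3% and 41.9%. Bound members had it in 7 of 10 promoters (70%), against 56.7% of the promoters of all bound genes. Unbound members had it in 15 of 22 (68.2%). Within 50 bp of a summit it was found at 5 of 10 bound members, against 17.2% of all 3844 optimal summits. Those 3844 summits are not limited to promoters, as the member summits are, and the share at promoter summits alone was not counted.

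The other motifs lay on both sides of their share of all promoters. The whole DRE, TATCGATA, which contains CGATA, was in 3 promoters (Taf3, Tbp and Tfb5, 9.38%, against 9.37% of all promoters) and at no member summit. The GAGA motif GAGAG was in 3 (9.38%, against 29.8%), the initiator core TCAGT in 10 (31.2%, against 51.6%), and TATAAA in 13 (40.6%, against 45.9%). The motif 1 core GGTCACAC was in 4 (12.5%, against 7.71%), the E-box CAGCTG in 7 (21.9%, against 17.7%), the E-box CACGTG in 1 (3.12%, against 4.24%) and the Zelda motif CAGGTAG in 0 (against 1.64%). At the summits themselves, besides CGATA, only TATAAA was found, at Taf5 (1 of 10, against 21.1% of all 3844 optimal summits). Over all optimal summits the shares were 18.1% for TCAGT, 9.78% for GAGAG, 3.64% for CAGCTG and 1.85% for the DRE. They were 0.937% for GGTCACAC, 0.911% for CACGTG and 0.468% for CAGGTAG. With 10 member summits, a difference from these shares was not tested. A missing match says only that these letters are not in the window. The GC content of the 101 bp around the member summits had a median of 38.6% and ranged from 16.8% to 50.5%. Around all optimal summits, which are not limited to promoters, the median was 32.7%.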

How the data were processed

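The authors deposited narrowPeak lists on the dm6 assembly. Per their file listings, the peaks of each replicate came from its own alignment and a control, and the pooled peaks from all 3 alignments. The optimal list came from these by IDR, which measures how alike peaks rank in replicates. It holds the 3844 strongest pooled peaks, so a peak in it need not be found in each replicate. Of the 3844, 2441 had a matching summit among the top peaks of all replicates. The sources used here name no aligner, peak caller or version. The signal of a peak was written by the authors' peak caller, depends on depth, and was used only within a list. The lists on dm3 were not used. The relaxed lists, per the file listings, hold peaks and background.

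Peaks were set against the Ensembl release 115 annotation and the genome of the same assembly. Summits are the peak start plus the deposited offset, and coordinates are 1-based. A replicate's peak at a gene is the strongest with a summit within 500 bp of a TSS. No enrichment test was made: counts stand beside those of all protein-coding genes, and the replicates give the spread. Replicates are separate biosamples per the labels. The code that makes the calls was checked on simulated summits placed at known positions, which does not test the peaks themselves. The members, classes, motifs and lists were chosen with earlier results of these data known. All members were named, and of the other pathway genes mainly those bound. The work used Python 3.11.15, numpy 2.4.6, pandas 2.3.3 and matplotlib 3.10.9.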

Additional observations from a re-analysis of the deposited data

How the results depend on the processing

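Of 14 alternatives, the count of 10 bound members stayed between 7 and 11 under all but 1. When each summit counted only for the nearest TSS, 3 members were bound, with 2 in TFIID, 0 in TFIIH and 1 among the others. When the called interval had to cover a TSS, 1 of the other members (TfIIA-S) and 1637 of all genes were bound, and 7 members (21.9%, against 11.7% of all genes). With the stronger 1922 optimal peaks 8 members and 1591 of all genes were bound (25%, against 11.4%). Leaving out a replicate, by keeping those of the strongest 3844 peaks of the other replicates whose summits matched within 200 bp, gave 8 to 9 members, 3 to 4 in TFIID, 2 to 3 in TFIIH, 3 among the others and 2020 to 2205 of all genes. Taf4 and TfIIA-S were bound under every alternative, and 3 unbound members were bound under 1 alternative each: Taf3 and Taf6 in replicate 3 alone, and TfIIS with a window of 1000 bp. The strongest pooled peaks gave the optimal set itself. No paired analysis was possible because the series has 1 group. Without read totals, a missing peak cannot be told apart from too little depth.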
